A study of Homo sapiens with 3 samples.

Results

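The comparison sets MDA-MB-231 tumorspheres treated with M2 directly against MDA-MB-231 tumorspheres whose label reads LINC00273 overexpression, gene by gene, without the untreated spheres. All genes entered it: of 57773 genes listed, 21379 had at least 1 read in either library, and the 4214 with at least 100 reads over both libraries together are called measured here. The M2 spheres carried no construct and were exposed for 24 h to 10 µM of M2, for which the labels give only this code name. The LINC00273-labelled spheres received a LINC00273-pcDNA-CMV clone, a plasmid for the long non-coding RNA LINC00273 in which a strong viral promoter drives the RNA, and are also labelled 24 h. Both groups share the cell line, the non-adherent culture and the medium with epidermal growth factor, B27 and insulin. The MDA-MB-231 line, long established from human breast cancer, lacks oestrogen, progesterone and HER2 receptors, and its tumorspheres are floating clusters grown on plates that prevent attachment. The submitters describe the M2 spheres by tumour regression and the LINC00273 spheres by enhanced metastasis. Without the untreated spheres, a ratio does not say which side departed from them.

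There was 1 library per side. No difference between the groups can therefore be tested, no p-value is given, and "higher" and "lower" mean only the direction of a ratio between these 2 libraries. The log2 ratio is always M2 over LINC00273-labelled, computed from reads scaled by TMM and given as CPM, the reads of a gene per 1000000 scaled reads of its library. TMM sets the scale from the bulk of the genes after trimming extreme ones. The interval beside a ratio is a 95% Clopper-Pearson interval of the split of fragments and covers counting error only, not the spread between cultures. The M2 library held 4695535 reads on genes and the LINC00273-labelled library 5123199.

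A G-quadruplex is a four-stranded fold that guanine-rich nucleic acid can adopt, stacked from runs of neighbouring guanines, and small molecules that bind such folds are used to change the expression of the genes or RNAs that carry them. The series title places a G-quadruplex in LINC00273 and calls the RNA a microRNA sponge, that is, an RNA that binds microRNAs and so keeps them from their target messages. The miR-200 family is the best-known microRNA brake on the epithelial to mesenchymal transition, in which carcinoma cells lose junctions, take up a fibroblast-like cytoskeleton and secrete matrix. It pairs through its seed with messages such as ZEB1 and ZEB2, which encode repressors of epithelial genes. The labels name no microRNA, and the family was taken up here as background.

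LINC00273 is a single-exon gene of 1452 nt with 70.4% GC, annotated on the minus strand at chr16:34158585-34160036 (GRCh38, GENCODE 29). The stretch of letters usually searched for, 4 runs of at least 3 G with spacers of 1 to 7 bases, occurs 2 times in it. Both stretches are shown 5′ to 3′ on the strand of the RNA because they are what the title turns on, with the runs of G in capitals and 12 flanking bases on each side. As printed, flanking bases included, the first begins at base 103 of the transcript and the second at base 674. A match to the letters is no evidence of a fold.
LINC00273 bases 103 to 152, chr16:34159885-34159934: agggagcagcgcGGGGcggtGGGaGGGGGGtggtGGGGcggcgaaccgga
LINC00273 bases 674 to 724, chr16:34159313-34159363: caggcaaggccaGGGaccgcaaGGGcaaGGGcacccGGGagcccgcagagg

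The 5 members of the miR-200 family (mature sequences from RefSeq, GRCh38.p14) fall into 2 seed groups that differ at 1 base of the seed, bases 2 to 8, in capitals. They are shown because their seeds define the matches counted further on. Small RNAs of this size were not measured in these libraries.
hsa-miR-200a-3p: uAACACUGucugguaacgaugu
hsa-miR-141-3p: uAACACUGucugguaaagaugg
hsa-miR-200b-3p: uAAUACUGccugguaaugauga
hsa-miR-200c-3p: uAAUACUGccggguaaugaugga
hsa-miR-429: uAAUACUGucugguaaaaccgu
Matches were sought over the whole of the longest GENCODE 29 transcript, coding sequence included. The first match to the second seed group in ZEB1 and in ZEB2, with the match in capitals, reads as follows.
ZEB1 CAGTATT: tttatcttatCAGTATTatcactc
ZEB2 CAGTATT: cagtccagacCAGTATTcctgggc

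The gene that names one side gave no check of the labels. LINC00273 had 0 reads in the M2 library and 0 reads in the library labelled LINC00273 overexpression, where 3 fragments would correspond to 1.37 CPM and 1.09 CPM. Overexpression was thus not detectable at this depth and with the counting used, and every direction below rests on the label alone. Whether reads of LINC00273 were lost in mapping to similar sequences elsewhere in the genome was not tested.

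Markers of the labelled cell line were read in both libraries with uneven support. Of 14 basal and MDA-MB-231 markers, 5 were measured, among them vimentin (VIM) with 4182 reads with M2 and 8910 in the LINC00273-labelled library, and caveolin 1 (CAV1) with 288 and 208 reads. VIM, the receptor kinase gene AXL (-1.11), S100A6 (-0.76) and MSN (-0.61), that is 4 of the 5, were at least 1.5-fold lower with M2 and CAV1 was higher, with a median of -0.76. The surface glycoprotein CD44 had 29 reads with M2 and 44 reads LINC00273-labelled, the galectin gene LGALS1 had 8 and 70, the receptor EGFR 61 and 8, and CAV2 4 and 4. The keratin genes KRT8 and KRT18 were near 0, with 2 and 0 reads with M2 and 6 and 4 reads LINC00273-labelled. Of 14 HEK293-type and neural markers 3 were measured, TMEFF2 and CKB at least 1.5-fold lower with M2. The summed level of all 14 was 67.9 CPM with M2 and 178 CPM LINC00273-labelled. Of these sums TMEFF2 alone made up 25.2 CPM and 112 CPM, so the difference is mostly that of 1 gene. None of the 14 luminal breast markers and none of the 12 fibroblast markers was measured. In bulk libraries such as these, fewer cells of a type and less RNA per cell cannot be told apart.

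Most genes were close to one another in the 2 libraries. The median log2 ratio over the 4214 genes was 0.21 (quartiles -0.09 and 0.48), and 3236 genes (76.8%) lay within 1.5-fold. At least 2-fold higher with M2 were 73 genes, 1.73% of those measured, and at least 2-fold lower were 87, or 2.06%. At the smaller size of 1.5-fold, 678 genes (16.1%) were higher and 300 (7.12%) lower. Few single genes were separated by more than 2-fold beyond counting error: the whole interval lay past 2-fold for 6 genes that were higher and 16 that were lower. The genes past 2-fold were thin, with a median of 172 reads for the higher and 166 for the lower ones, against 425 for all measured genes.

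How the 160 genes past 2-fold (3.8% of those measured) divide depends on the scaling. With TMM 45.6% of them were higher with M2. Scaling to the total count gave 34 higher and 161 lower (17.4% higher), leaving RN7SL and RN7SK genes out of the total gave 22 and 210 (9.48%), and centring on the median gene gave 32 and 161 (16.6%). Centring on genes of like GC content gave 27 and 127 (17.5%). The authors' deposited scaling turned the balance the other way, with 95 higher and 76 lower (55.6%). The median of all genes shifts with them, to 0.01 for total counts and to -0.08 without the RN7SL and RN7SK genes, so each list median below is to be read against the 0.21 of all genes. Each list count at 1.5-fold is to be read against 16.1% of all genes higher and 7.12% lower, and with GC centring, counted this way after the data were seen, against 190 (4.56%) higher and 444 (10.7%) lower of 4165 genes. RN7SL1, which forms the scaffold of the particle that targets secreted proteins, took 29.6% of reads with M2 and 34.2% in the LINC00273-labelled library, and RN7SK, which holds back transcription elongation, took 9.78% and 8.63%.

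**Figure D1:**
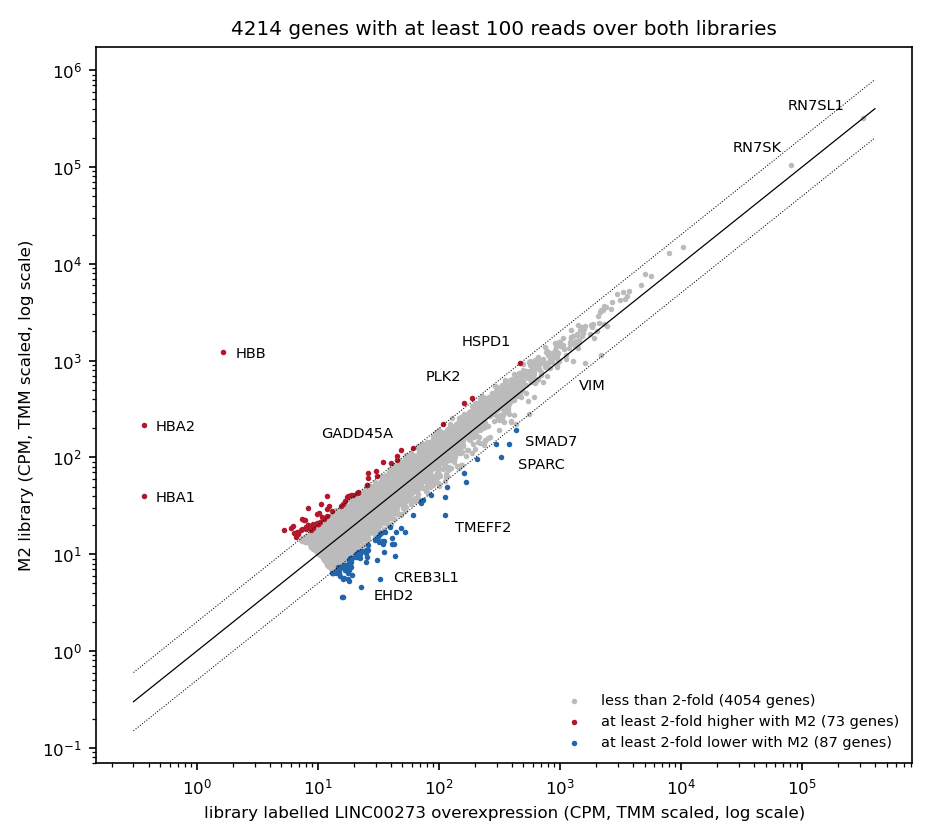
Level of each of the 4214 measured genes in the M2 library (vertical axis) and in the library labelled LINC00273 overexpression (horizontal axis), both in TMM-scaled CPM on log axes, 1 point per gene. The solid line marks equal levels and the dotted lines 2-fold, the 3 globin genes lie far above the cloud, and HBA2, at 0 reads LINC00273-labelled, is drawn at the lowest level above 0.

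The largest ratios of all belonged to adult haemoglobin. HBB, the beta chain, had 5417 reads with M2 (1239 CPM) and 9 reads in the LINC00273-labelled library (1.64 CPM), a log2 ratio of 9.56 with an interval of 8.38 to 11.6. HBA2, an alpha chain gene, had 944 reads with M2 and 0 LINC00273-labelled. Its log2 ratio against a floor of 3 fragments is 7.63, with an interval from 7.32 upward. Its near-identical copy HBA1 had 175 reads with M2 and 2 LINC00273-labelled, and how reads were divided between the 2 copies is uncertain. These were the 3 genes past 4-fold on the higher side.

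Other blood cell genes were also read, at far lower levels. The summed level of all 16 blood cell markers was 1527 CPM with M2 and 11.5 CPM LINC00273-labelled, of which the 3 globins made up 1494 CPM and 2 CPM. The other 13 summed to 143 reads with M2 (32.7 CPM) and 52 reads LINC00273-labelled (9.45 CPM), a split made after the data were seen. Of all 16, 2 had 0 reads with M2 and 4 had 0 LINC00273-labelled. Below the read minimum, the leukocyte phosphatase gene PTPRC had 46 reads with M2 and 10 LINC00273-labelled, the lysozyme gene LYZ had 31 and 2, and ALAS2, the first enzyme of haem synthesis in erythroid cells, had 20 and 5. CD3E and CD68, markers of T cells and macrophages, had 0 and 0 reads with M2 and 3 and 0 LINC00273-labelled. Of the class I antigen presentation genes, B2M had 59 reads with M2 and 0 LINC00273-labelled, HLA-B had 47 and 2, HLA-E 44 and 5, and HLA-C 33 and 6. The class I genes named are not among the 16 markers and were picked after their values were seen. All 27 listed interferon and MHC class I genes summed to 339 reads with M2 (77.51 CPM) and 206 LINC00273-labelled (37.45 CPM). The class I genes named account for this difference. The other listed members together stood at nearly equal CPM in the 2 libraries. No interferon or MHC class I gene reached 100 reads over both libraries, and the part of blood cell RNA in any other result was not tested.

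Apart from the globins, the genes highest with M2 included transcription regulators, a receptor subunit and a mitochondrial adaptor, all thinly read. SP4, a zinc-finger factor that binds GC-rich promoters, had 132 reads with M2 (30.2 CPM) and 46 reads LINC00273-labelled (8.36 CPM), a log2 ratio of 1.85 with an interval of 1.15 to 2.60. ARID5B, a DNA-binding partner of a histone demethylase, had 173 and 65 reads and a log2 ratio of 1.74. IL1RAP, the co-receptor for interleukin 1, had 146 and 58 reads and a log2 ratio of 1.66. For these 3 genes the interval stayed past 2-fold. The other protein-coding genes among the 15 highest were PGS1, SPATS2, MID2, TMEM47, TRAK2, TRIM23, THUMPD1, PFKFB3 and FNTA, with log2 ratios of 1.74 for PGS1 down to 1.35 for FNTA, and their intervals reached below 2-fold. PFKFB3 makes the activator of glycolysis fructose 2,6-bisphosphate, TRAK2 links mitochondria to kinesin, and FNTA is a subunit of the enzymes that prenylate RAS proteins.

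The most-read genes past 2-fold on the higher side included a chaperonin, a nucleolar protein and genes of the stress response. HSPD1, the mitochondrial chaperonin, had 4163 reads with M2 and 2558 LINC00273-labelled (952 and 465 CPM), a log2 ratio of 1.03. PLK2, a kinase of the polo family that p53 induces, had 1806 and 1028 reads and a log2 ratio of 1.14. NOP58, a core protein of the small nucleolar particles that methylate ribosomal RNA, had 970 and 590 reads and a log2 ratio of 1.05. GADD45A, a growth arrest and DNA damage gene, had 521 and 266 reads and a log2 ratio of 1.30 with an interval of 0.99 to 1.61. FAM135A and GMFB followed with log2 ratios of 1.22 and 1.07. The remaining 2 besides the globins, RPS3AP44 and TCEA1P2, are pseudogenes whose reads cannot be told apart from those of their parent genes where the copies match. Apart from HBB and HBA2, these genes sit close to the 2-fold line. Of all 10, both globins included, 4 stayed past it with total-count scaling and 3 with RN7SL and RN7SK genes left out of the total or with GC centring.

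The lowest genes included a regulator of collagen genes, matrix components and surface receptors. CREB3L1, a membrane-bound transcription factor that is released from the endoplasmic reticulum and drives collagen genes, had 24 reads with M2 (5.49 CPM) and 181 reads LINC00273-labelled (32.9 CPM), a log2 ratio of -2.58 with an interval of -3.58 to -1.70. EHD2, an ATPase at the neck of caveolae, had 20 and 126 reads and a log2 ratio of -2.33. PTPRU, a receptor tyrosine phosphatase of cell contacts, had 42 and 237 reads and a log2 ratio of -2.17. TMEFF2, a membrane protein with follistatin-like domains, had 110 and 617 reads and a log2 ratio of -2.16. UBTD1 and GPR98, a very large adhesion receptor, completed the 6 genes past 4-fold on the lower side. Below these came CHSY1, COL5A1, FLRT2, MID1, ITM2B, FADS3, SPARC, TNRC18 and UAP1, with log2 ratios of -1.83 for CHSY1 to -1.62 for UAP1.

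**Figure D2:**
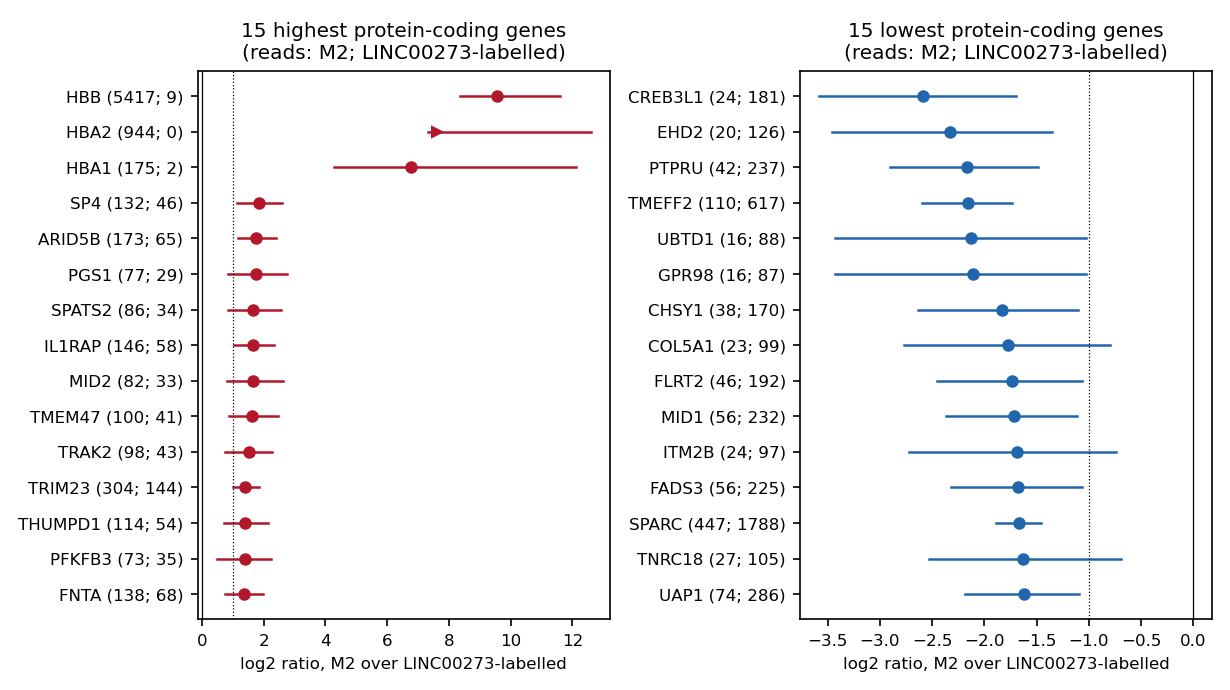
Log2 ratio of M2 over LINC00273-labelled (horizontal axes) for the 15 highest (left) and 15 lowest (right) protein-coding genes, with reads in the M2 library and then the LINC00273-labelled library after each name. Points are ratios, lines are 95% counting intervals, the triangle for HBA2 is a lower bound whose interval has no upper end, and the dotted lines mark 2-fold.

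The most-read genes on the lower side had narrower intervals. SPARC, a matrix glycoprotein that binds collagen, had 447 reads with M2 and 1788 LINC00273-labelled (102 and 325 CPM), a log2 ratio of -1.67 with an interval of -1.88 to -1.45. HMGA2, a chromatin protein of embryonic and mesenchymal cells, had 245 and 913 reads and a log2 ratio of -1.57. FN1, fibronectin, had 170 and 620 reads and a log2 ratio of -1.54 with an interval of -1.90 to -1.19. VEGFA, the main growth factor for blood vessels, had 300 and 879 reads and a log2 ratio of -1.22. The transcription factors ELK3, FOSL2 and MYBL1 had log2 ratios of -1.25, -1.12 and -1.08. All 10 of the most-read lower genes stayed at least 2-fold lower under each of the 4 other scalings and both centrings.

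Matrix and proteoglycan genes were lower with M2 as far as they passed 1.5-fold. Among 10 measured hyaluronan and proteoglycan genes, 5 lay 1.5-fold or more on the lower side and 0 on the higher, with a median log2 ratio of -0.59. HAS2, which makes hyaluronan, had 74 reads with M2 and 244 LINC00273-labelled and a log2 ratio of -1.39. CHSY1, which builds chondroitin chains, had 38 and 170 reads, and HS6ST1, a heparan sulphate sulphotransferase, had 88 and 212. UAP1, which makes a sugar donor for hyaluronan and was not on the list, had 74 and 286. Among 7 measured collagens and secreted matrix genes, SPARC and COL5A1 were lower while the other 5 lay within 1.5-fold, THBS1 at -0.12, LAMB1 at 0.32 and LAMC1 at 0.25 among them. Of the 4 measured proteases and inhibitors, MMP14, the membrane-bound collagenase, had 41 and 139 reads (-1.43), TIMP2, which pairs with it, had 118 and 230 (-0.63), and ADAM10 and ADAM17 were at 0.21 and 0.19.

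The TGF-beta pathway, a main driver of matrix production, showed its feedback inhibitor and its receptor on the lower side. TGFBR2, the receptor kinase that binds the ligand, had 46 reads with M2 and 119 LINC00273-labelled and a log2 ratio of -1.04. LTBP1, which holds latent ligand in the matrix, had 66 and 174 reads and a log2 ratio of -1.07. SMAD7, the inhibitor that the pathway itself induces, had 596 and 2074 reads and a log2 ratio of -1.47 with an interval of -1.66 to -1.28, and SKI, a co-repressor of SMAD proteins, had 667 and 1316 reads (-0.65, or -0.53 with GC centring). The signal carriers SMAD2 and SMAD4 were at 0.36 and 0.16, and the receptor TGFBR1 at -0.09. In all, 4 of the 10 measured genes passed 1.5-fold on the lower side and 0 on the higher, with a median of -0.09. Of the 12 members below the minimum, some were picked after their values were seen. The ligand gene TGFB1 had 10 reads with M2 and 50 LINC00273-labelled, the target CTGF had 24 and 74, and the target BHLHE40 had 2 and 24. Thinly read genes leaned lower as a whole: with a minimum of 20 reads, 322 genes were at least 2-fold higher with M2 and 1009 lower. These thin counts therefore add nothing particular to the pathway.

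Mesenchymal genes were lower with M2 where they passed 1.5-fold. VIM, the intermediate filament of mesenchymal cells, had a log2 ratio of -0.76 (interval -0.84 to -0.69), FN1 -1.54, ITGB1, the shared beta chain of matrix-binding integrins, -0.61, and PRRX1, a mesenchymal homeobox factor, -0.83. The repressors of epithelial genes lay within 1.5-fold or were thinly read. ZEB1 had 296 reads with M2 and 404 LINC00273-labelled (-0.12), ZEB2 had 2798 and 3419 (0.04), TWIST1 had 612 and 710 (0.12), and SNAI2 had 17 and 12 with no usable ratio. SNAI1 had 0 reads in both. The remaining measured members, CDH2 and TWIST2, were at 0.11 and -0.05. Centred on genes of like GC content, ZEB1 stood at -0.52, ZEB2 at -0.38 and TWIST1 at 0.07, and the median of the list at -0.52. These 4 of 9 measured EMT and mesenchymal genes passed 1.5-fold on the lower side and 0 on the higher, with a median of -0.12. On the epithelial side CDH1, encoding E-cadherin, had 2 reads with M2 and 7 LINC00273-labelled and EPCAM had 1 and 3, while the 4 measured junction genes lay between 0.02 and 0.38.

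The 14 measured targets of the miR-200 family lay on both sides of no change before any centring. 3 were at least 1.5-fold higher, BMI1 (0.76), KIDINS220 (0.69) and CFL2 (0.62), and 4 were lower, FN1 (-1.54), RECK (-0.95), KLF9 (-0.69) and MSN (-0.61), with a median of 0.01, where 16.1% of all genes were higher and 7.12% lower. GC centring left 0 higher and 4 lower, with a median of -0.29, so that the higher side rests on the uncentred ratio. RECK restrains matrix proteases, and MSN ties actin to the membrane. ZEB1 and ZEB2, whose seed matches are printed above, were within 1.5-fold, as were SUZ12 (0.41) and QKI (0.52). Over all genes with a transcript in GENCODE 29, 56.7% held CAGTATT or CAGTGTT on the transcript strand, at any place in the longest transcript. The share was 47.9% of the genes at least 2-fold higher and 48.8% of those at least 2-fold lower. Genes with a match had a median log2 ratio of 0.26 and genes without one 0.15, and within each of 5 equal classes of GC content the 2 medians were closer, 0.39 with and 0.40 without in the lowest class and -0.04 with and -0.08 without in the highest. Within 5 equal classes of transcript length the medians stayed apart in most, 0.27 with and 0.15 without in the middle class and 0.27 and 0.14 in the longest. GC content was not held equal there: its median was 43.0% with and 48.0% without a match in the middle class, and 41.7% and 47.4% in the longest.

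Stemness and drug response genes, the other themes of the title, gave few large ratios. SOX2 had 191 reads with M2 and 140 LINC00273-labelled (0.78, interval 0.33 to 1.25), BMI1, a Polycomb protein of stem cell renewal, had 302 and 224, and ITGA6, a laminin receptor subunit, had 381 and 316 (0.60). MYC had 176 and 176 reads (0.33), and KLF4 had 40 and 43. HMGA2 was the 1 stemness gene at least 1.5-fold lower, beside 3 of 7 measured that were higher, of which GC centring left SOX2 (0.68), with BMI1 at 0.34. NANOG had 4 and 0 reads and POU5F1 0 and 4, both too few for a ratio. Of the efflux pumps, ABCB1 had 21 reads with M2 and 37 LINC00273-labelled, ABCC1 9 and 22, ABCC3 4 and 16, and ABCG2 0 and 11. All lay below the minimum, where genes leaned lower with M2 as a whole. The DNA topoisomerases TOP2A and TOP2B, targets of anthracyclines and etoposide, were at 0.66 and 0.78, and TOP1 was at 0.02.

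**Figure D3:**
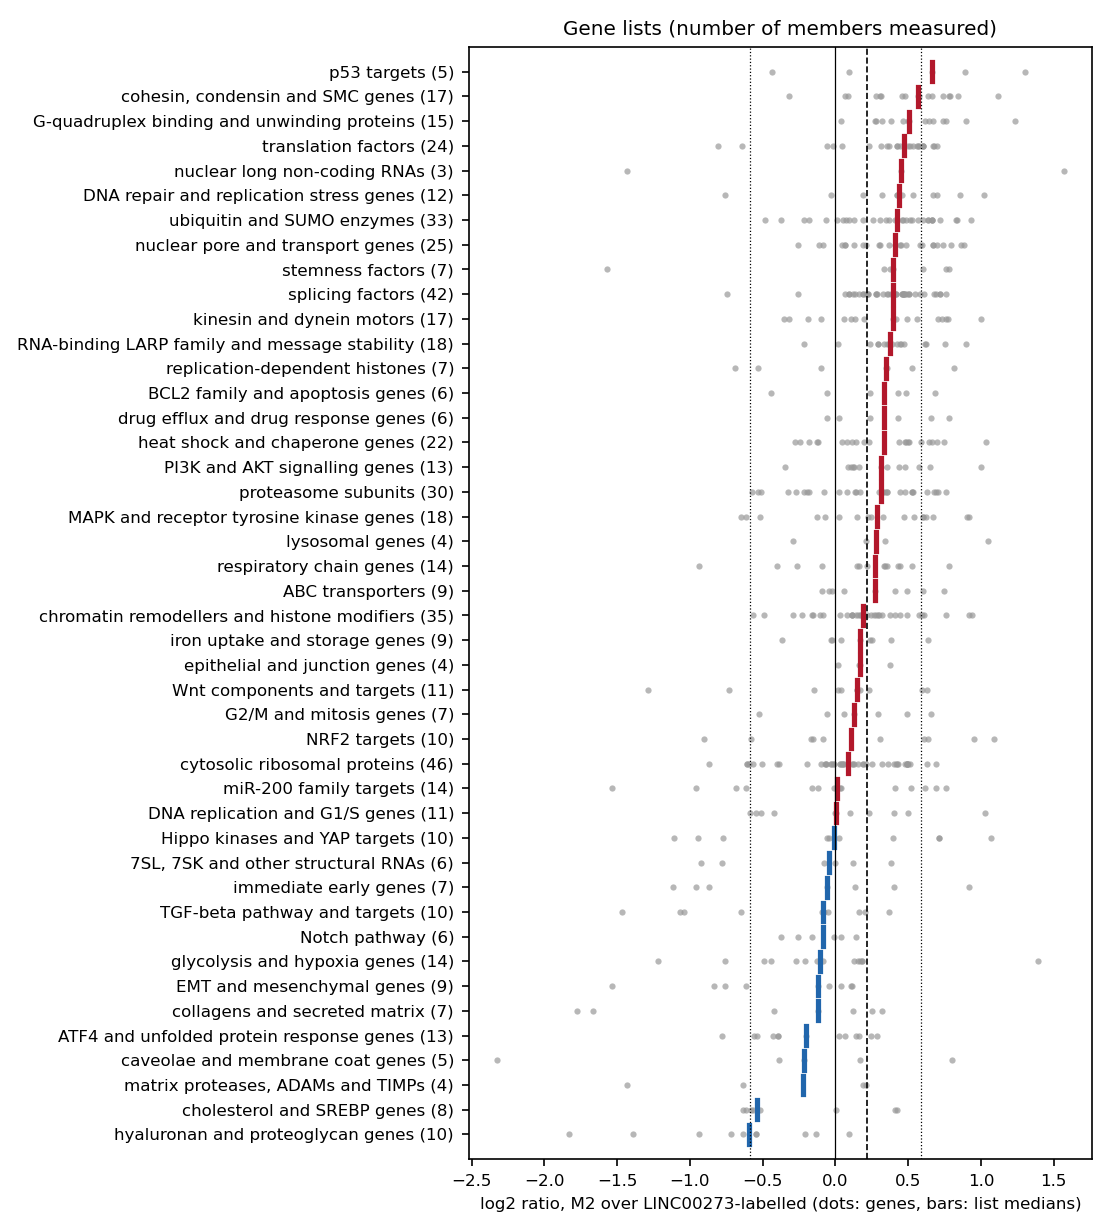
Log2 ratio of M2 over LINC00273-labelled for the measured members of the gene lists with at least 3 of them, cell type markers left out (grey dots: genes, thick bars: list medians, number measured in brackets). The dashed line is the median of all genes, 0.21, and the dotted lines mark 1.5-fold. The hyaluronan and proteoglycan list has the lowest median, -0.59. The p53 targets have the highest, 0.66, from 5 genes, or 0.33 with GC centring.

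The cohesin and condensin, DNA repair and p53 target lists had medians above that of all genes. Chromatin remodellers and histone modifiers did not: 5 of 35 measured were at least 1.5-fold higher and 0 lower, with a median of 0.19. Of 17 measured cohesin, condensin and SMC genes, 7 were at least 1.5-fold higher, beside 16.1% of all genes, and 0 lower, with a median of 0.57. GC centring left 1 of the 17 higher, SMC2, with NIPBL at 0.42 and SMC4 at 0.46. SMC2, the core of condensin, had 380 reads with M2 and 220 LINC00273-labelled (1.12, interval 0.77 to 1.47), SMC4, its partner, had 200 and 140 (0.85), and NIPBL, which loads cohesin, had 3159 and 2298 (0.79). Among 12 measured DNA repair genes 4 passed 1.5-fold on the higher side and 1 on the lower, and GC centring left 1 on each, with a median of 0.09. RIF1, which protects broken ends from resection, was at 1.02, REV3L, the catalytic subunit of a translesion polymerase, at 0.85, and ATR, the replication stress kinase, at 0.70, and after GC centring the 3 stood at 0.65, 0.49 and 0.33. GADD45A led the p53 targets, of which 3 of 5 measured were higher, with SESN1 at 0.89 and PHLDA3 at -0.44. MDM2, the ligase that destroys p53, was at 0.66. GC centring left 2 of the 5 higher, with a median of 0.33, and 12 members lay under the read minimum. Across the settings tried the list median ran from -0.08 to 0.72. BBC3, a p53 target under the minimum, went the other way and is given at the end.

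Proteins known to bind or unwind G-quadruplexes gave 7 of 15 measured at least 1.5-fold higher, beside 16.1% of all genes, and 0 lower, with a median of 0.50. GC centring left 2 higher, DDX21 and NCL, of the 14 with a GC value, with CNBP at 0.56 and HNRNPA2B1 at 0.40. DDX21, a nucleolar helicase, had 266 reads with M2 and 142 LINC00273-labelled (1.24, interval 0.81 to 1.67). NCL, nucleolin, had 1773 and 1196 (0.90), CNBP, a zinc-knuckle protein, had 10272 and 7751 (0.74), and HNRNPA2B1 had 9141 and 6780 (0.76). DHX36, the helicase most closely tied to RNA quadruplexes, had 114 and 118 (0.28). Unmeasured members lay the other way in part, such as GRSF1 with 12 reads with M2 and 43 LINC00273-labelled and PIF1 with 2 and 14.

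Most other housekeeping lists had medians above that of all genes, but shares of higher members near 16.1% in several. Translation factors had 6 of 24 higher and 2 lower (median 0.47), with EIF4G2 at 0.70, EIF5 at 0.68 and EIF5B at 0.67, and EEF2, the elongation factor that moves the ribosome, at -0.81. Nuclear pore and transport genes had 8 of 25 higher and 0 lower (0.41), led by the importin gene IPO7 with 4002 reads with M2 and 2729 LINC00273-labelled (0.88) and by RANBP2 at the cytoplasmic face of the pore (0.86). Ubiquitin and SUMO enzymes had 10 of 33 higher and 0 lower (0.42), with the cullin gene CUL5 at 0.93. Splicing factors had 6 of 42 higher and 1 lower (0.40), no larger a share than that of all genes, and kinesins and dyneins 5 of 17 and 0 (0.39). Chaperones had 6 of 22 higher and 0 lower (0.34), where the chaperonin subunits CCT4 and CCT2 were at 0.75 and 0.69 and the mitochondrial HSPA9 at 0.67. Proteasome subunits had 5 of 30 and 0 (0.31), close to the share of all genes. GC centring left 0 higher among translation factors, nuclear pore and transport genes and proteasome subunits, 1 each among ubiquitin enzymes, splicing factors and chaperones, and 2 among kinesins and dyneins. Cytosolic ribosomal proteins were below the median of all genes at 0.08, with 2 of 46 higher, RPL15 and RPL19, and 4 lower, RPS21 (-0.87) and RPS20 (-0.61) among them.

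Metabolic and stress lists were mixed. Cholesterol and SREBP genes had a median of -0.54 with 0 of 8 higher and 2 lower, the regulator SREBF2 (-0.64) among them, while HMGCS1, which opens the pathway, had 1015 reads with M2 and 1904 LINC00273-labelled (-0.58). The unfolded protein response list had 0 of 13 higher and 1 lower (-0.20), the disulphide isomerase PDIA3 (-0.78). GC centring gave 0 higher and 5 lower of 7 cholesterol genes, and 0 higher and 3 lower of the 13. Of 10 NRF2 targets 4 were higher and 1 lower, and GC centring gave 1 and 2. With that centring 4.56% of all genes were higher and 10.7% lower. NRF2 targets diverged: SLC7A11, the cystine importer, was at 1.09 and GCLM, a subunit of the first enzyme of glutathione synthesis, at 0.95, but TKT of the pentose phosphate pathway was at -0.90. Of the immediate early genes FOSL2, JUNB (-0.96) and JUND (-0.87) were lower, JUN was at 0.40, and DUSP1, a phosphatase that switches off MAP kinases, was at 0.92. SPRY2, an inhibitor of receptor tyrosine kinase signalling, was at 0.90. The RNA components RPPH1 of ribonuclease P and RNU4-2 of the spliceosome had 5052 and 1011 reads with M2 and 12036 and 2180 LINC00273-labelled, log2 ratios of -0.92 and -0.78.

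**Figure D4:**
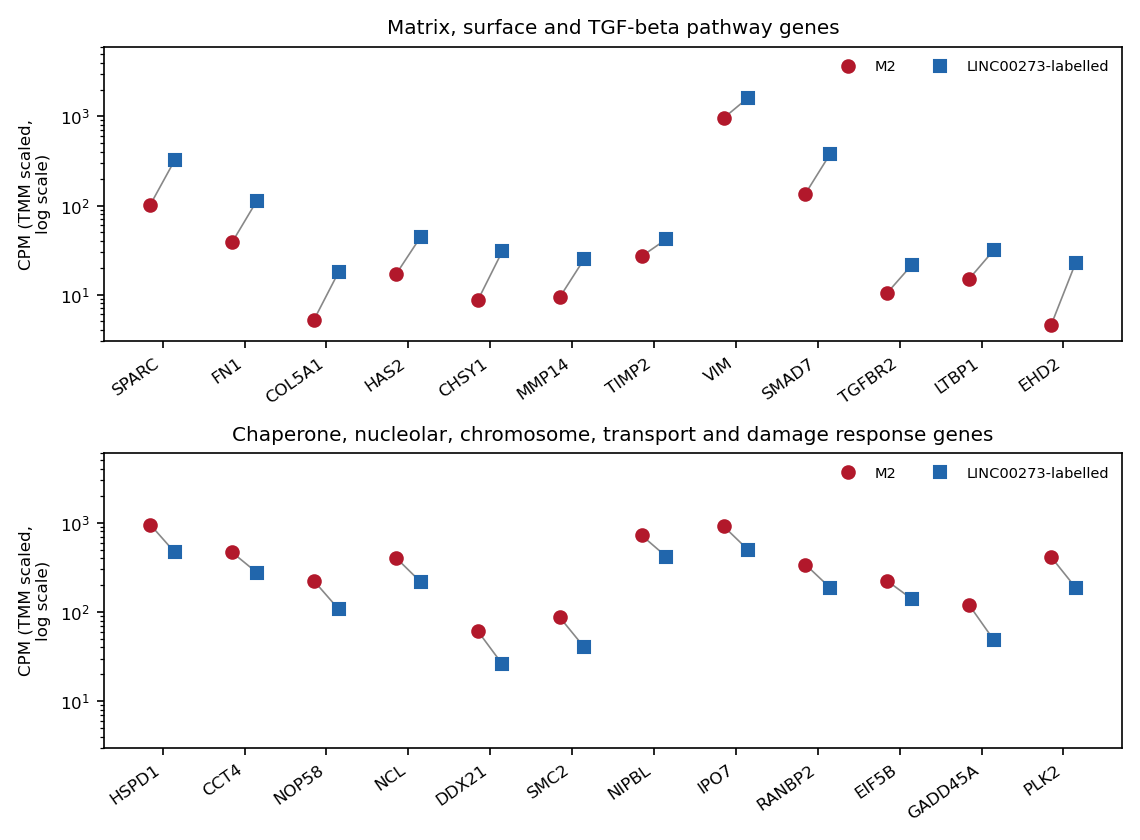
Level in TMM-scaled CPM (log axes) of 24 named genes, with the M2 library as circles on the left of each pair and the LINC00273-labelled library as squares on the right. The genes were chosen after their values were seen: the 12 above, of matrix, surface and TGF-beta pathway, are lower with M2, as SPARC at 102 and 325 CPM, and the 12 below are higher, as HSPD1 at 952 and 465 CPM.

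The ratio went with the base composition of the transcript. Across the 4165 genes with a transcript, the log2 ratio and GC content had a Spearman correlation of -0.38, given as a description since all genes share the same 2 libraries. From the lowest to the highest of 5 equal classes of GC content the median log2 ratio was 0.39, 0.36, 0.22, 0.13 and -0.06, and at least 2-fold lower genes numbered 8, 9, 11, 21 and 35. Genes at least 2-fold higher had a median GC of 41.3%, those at least 2-fold lower 51.8% and all genes 45.2%. Chromosome 19, with a median GC of 58.9%, had the lowest chromosome median at -0.13. Transcript length had a Spearman correlation of 0.06 with the ratio, and reads over both libraries one of 0.24, with medians of 0.04 in the least-read and 0.37 in the most-read of 5 classes. The part of GC content in the named results was not tested beyond the centring: centred on genes of like GC content, SPARC stood at -1.89, FN1 at -1.82, SMAD7 at -1.43 and VIM at -0.99, against 0.84 for HSPD1, 0.85 for DDX21, 0.73 for SMC2 and 1.17 for GADD45A. These are the ones that stayed high: of 99 genes that the naming rule picked and that were measured and at least 1.5-fold higher with M2, 44 stayed so after the centring, against 58 of 63 on the lower side. TOP2A then stood at 0.24, EIF5 at 0.28, EIF4G2 at 0.33, MDM2 at 0.33 and CCT2 at 0.40. The medians of cohesin, quadruplex-binding and translation genes became 0.20, 0.21 and 0.17, and those of nuclear transport genes and proteasome subunits 0.09 and 0.01, with all genes then at 0. GC centring thus also takes out the median of all genes, 0.21, which by itself costs higher genes. Centring on that median alone left 32 genes at least 2-fold higher and 161 lower, against 27 and 127 with GC centring. How much of the loss of higher genes goes with GC content was not tested.

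**Figure D5:**
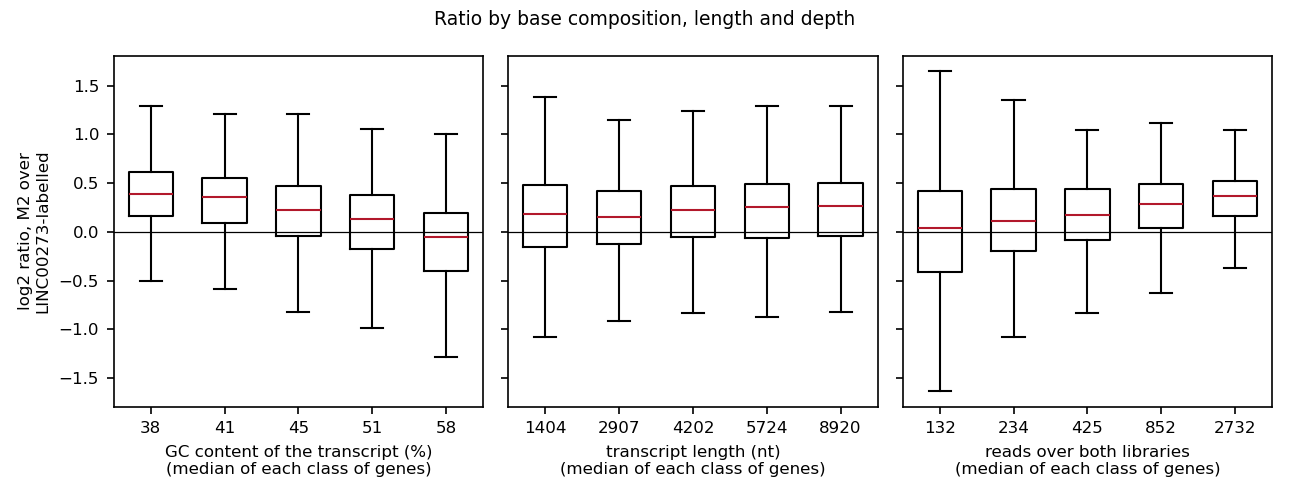
Log2 ratio of M2 over LINC00273-labelled (vertical axis) in 5 equal classes of genes by GC content of the longest transcript, by its length in nt and by reads over both libraries, with the median of each class on the horizontal axes. Boxes show quartiles with the median in red and whiskers reach at most 1.5 box lengths: the median is 0.39 in the class lowest in GC and -0.06 in the highest, and 0.04 in the least-read class and 0.37 in the most-read.

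The G-quadruplex letters were looked for in the transcripts as they had been in LINC00273, on the transcript strand. They occurred in 28.8% of all genes with a transcript, in 17.8% of genes at least 2-fold higher with M2 and in 38.1% of genes at least 2-fold lower. Genes with the letters had a median log2 ratio of 0.11 and a median GC of 50.2%, and genes without them 0.26 and 43.7%. Within the classes of GC content the medians were closer, 0.38 with and 0.40 without in the lowest class, 0.19 and 0.22 in the middle one, and -0.09 and -0.02 in the highest, where 4.22% of genes with the letters and 4.18% of those without were at least 2-fold lower. A search of promoters was void: RefSeq promoters were matched for 50 of the 73 higher and 65 of the 87 lower genes, too few to read.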

How the data were processed

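RNA of 2 libraries, depleted of ribosomal RNA per the labels' protocols and read as 150-bp pairs, was compared. The submitters' processing notes name Trimmomatic, STAR, Bowtie2 2.2.4, DESeq2 and featureCounts 1.5.2, with the build hg19. The sources used here do not give what each tool did, the strand setting or the fate of multi-mapping reads, so antisense genes and near-identical copies are uncertain. The deposited tables hold a signal per gene and library, a whole multiple of 1 step in each library. After division by that step, 100% of the values were whole within 0.01, and these recovered reads were used in place of the deposited signal, where the design had assumed counts. Below 20 reads, 85.8% (M2) and 80.5% (LINC00273-labelled) of values were even, so a fragment was taken as 2 reads, which gave 2347768 and 2561600 fragments for intervals and floors. Without molecular identifiers reads from PCR are not independent, so these cover counting error only. A gene at 0 in one library was put at a floor of 3 fragments there.

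The libraries were joined by gene identifier and scaled by TMM (edgeR 4.0.16, R 4.3.3), giving effective sizes of 4373711 with M2 and 5500171 LINC00273-labelled. A log2 ratio was taken without a prior, and the steps were tested on simulated data. With 1 library per side no count test was run. A spreadsheet had turned 29 symbols into dates, and they were restored by identifier. GC content, length and letters came from the longest GENCODE 29 transcript (Python 3.11.15, scipy 1.17.1).

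The rule for naming genes took LINC00273, 15 protein-coding genes at each end, 3 other genes at each end, the 10 most-read genes past 2-fold on each side, per list at most 4 members past 1.5-fold by size of ratio, and the first 4 of lists that the title concerns. Some of these are not reported here, and others were named after their values were seen. The members, lists and rules were chosen with earlier results of these data known. Alternatives were DESeq2 1.42.0 size factors, total counts with and without RN7SL and RN7SK genes, the authors' scaling, other read minimums, a prior of 5 reads, GC and median centring, protein-coding genes only and a 4-fold threshold.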

Additional observations from a re-analysis of the deposited data

How the results depend on the processing

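Of the 4214 measured genes, 73 were at least 2-fold higher with M2 and 87 lower. DESeq2 size factors (72 and 87), a prior of 5 reads (64 and 65) and protein-coding genes only (63 and 79) kept both counts within 1.5 times, as did the authors' scaling, where the higher genes (95) outnumbered the lower (76). Total counts gave 34 higher and 161 lower, total counts without RN7SL and RN7SK genes 22 and 210, centring on the median 32 and 161, and GC centring 27 and 127, of which 25 and 75 were shared with the main sets. A minimum of 20 reads gave 322 and 1009, no minimum 638 and 2093, and a minimum of 500 reads 12 and 14. A 4-fold threshold left 3 and 6. Of the 15 highest protein-coding genes all stayed past 2-fold under each scaling and centring except FNTA under GC centring (0.93), and the 15 lowest all did. No value turned its direction past the threshold. No paired analysis was possible because each side has 1 library. The depth of 2347768 fragments with M2 and 2561600 LINC00273-labelled limits the ratios of genes near 100 reads, and leaving out a library was not possible.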

Other observations

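The genes in this paragraph were picked by the naming rule, and MID1 and MID2 were set side by side after their values were seen. The paralogs MID1 and MID2, both on the X chromosome and both encoding microtubule-bound ubiquitin ligases, stood on opposite sides: MID1 had 56 reads with M2 and 232 LINC00273-labelled, a log2 ratio of -1.72, and MID2 had 82 and 33, a log2 ratio of 1.64. Of the 3 measured nuclear long non-coding RNAs on their list, OIP5-AS1 had 99 reads with M2 and 42 LINC00273-labelled (1.57). KCNQ1OT1, transcribed antisense within KCNQ1, had 56 and 190 (-1.43).

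Some short structural RNAs below the read minimum ran against RPPH1 and RNU4-2. Those named here, like BBC3, were picked after their values were seen. They do not speak for the 12 members of the structural RNA list that lay below the minimum. RMRP, the RNA of a ribonuclease that processes ribosomal RNA, had 65 reads with M2 and 16 LINC00273-labelled. SCARNA2, a guide RNA of Cajal bodies, had 40 and 6, and SCARNA10 had 20 and 0. BBC3, a p53 target that promotes cell death, had 1 read with M2 and 32 LINC00273-labelled, opposite in direction to GADD45A.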
